A study of Bos taurus with 6 samples.

Results

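The TRIM (tripartite motif) genes were followed in bovine cumulus cells, the somatic cells around the oocyte, matured with or without recombinant follicle-stimulating hormone (rFSH). Members were the genes whose symbol in the array's probe annotation starts with TRIM and a digit, which gave 52 of 15229 named genes, measured by 64 probes. The genes were chosen by symbol, and where a gene had several probes, 1 was selected on its mean spot intensity over all arrays and both dyes. The family was picked out with earlier results of these arrays known, so its counts are a description. Both groups were cumulus-oocyte complexes aspirated from ovaries of slaughtered Holstein cows and matured in groups in serum-containing medium with 1 µg/mL estradiol and pyruvate; 1 group also received 0.5 µg/mL rFSH. RNA of the 2 groups was amplified and hybridised together on 2-colour arrays, with 3 biological replicates numbered 2, 3 and 4 and 2 arrays with exchanged dyes for each. The control carries a 6 h label, but maturation for 22 to 24 h is described for the 2 groups alike. Whether the groups were matched in time is therefore not settled, and rFSH and culture time cannot be told apart in any ratio given here.

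TRIM proteins carry, in order, a RING finger, 1 or more B-box zinc fingers and a coiled coil, and most work as ubiquitin ligases that pair through the RING with a ubiquitin-conjugating enzyme. The end of the protein differs between members and sets what is bound: a SPRY domain in the largest branch, NHL repeats, a PHD finger with a bromodomain, or a COS box that binds microtubules. A number of SPRY members are induced by interferon and act in the cytosolic sensing of viral RNA. The label of ligase does not hold for every member by sequence: the human TRIM14, TRIM29, TRIM44 and TRIM66 proteins lack a RING.

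Of the 52 genes, 40 were tested because their spot intensity exceeded that of the negative control spots in at least 3 arrays of either group, and 17 of them did so in all 12 channels. No member was called higher with rFSH and 5 were called lower, namely TRIM6, TRIM38, TRIM25, TRIM21 and TRIM68 (limma, Benjamini-Hochberg adjusted p under 0.05 over all 34821 tested probes). All 5 are SPRY members, and 4 of them are on a list of interferon-linked members. Among all 13134 tested named genes with 1 probe each, 8.75% were called, 4.87% lower and 3.88% higher, against 12.5% lower and none higher of the tested TRIM genes. Over all tested probes, named or not, 6.34% were called, 3.37% lower and 2.97% higher. At an unadjusted p under 0.05, 8 members lay below 0 and 4 above. The median log2 ratio of the tested members was -0.03, beside 0.01 for all tested named genes, and 23 of the 40 lay below 0. Of the 35 members not called, 28 had a ratio within 0.25 of 0 on the log2 scale. These shares describe the tested members and not the family. Of the 40, TRIM10 passed the detection limit through the rFSH group alone, and its log2 ratio was -0.01 ± 0.25.

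**Figure D1:**
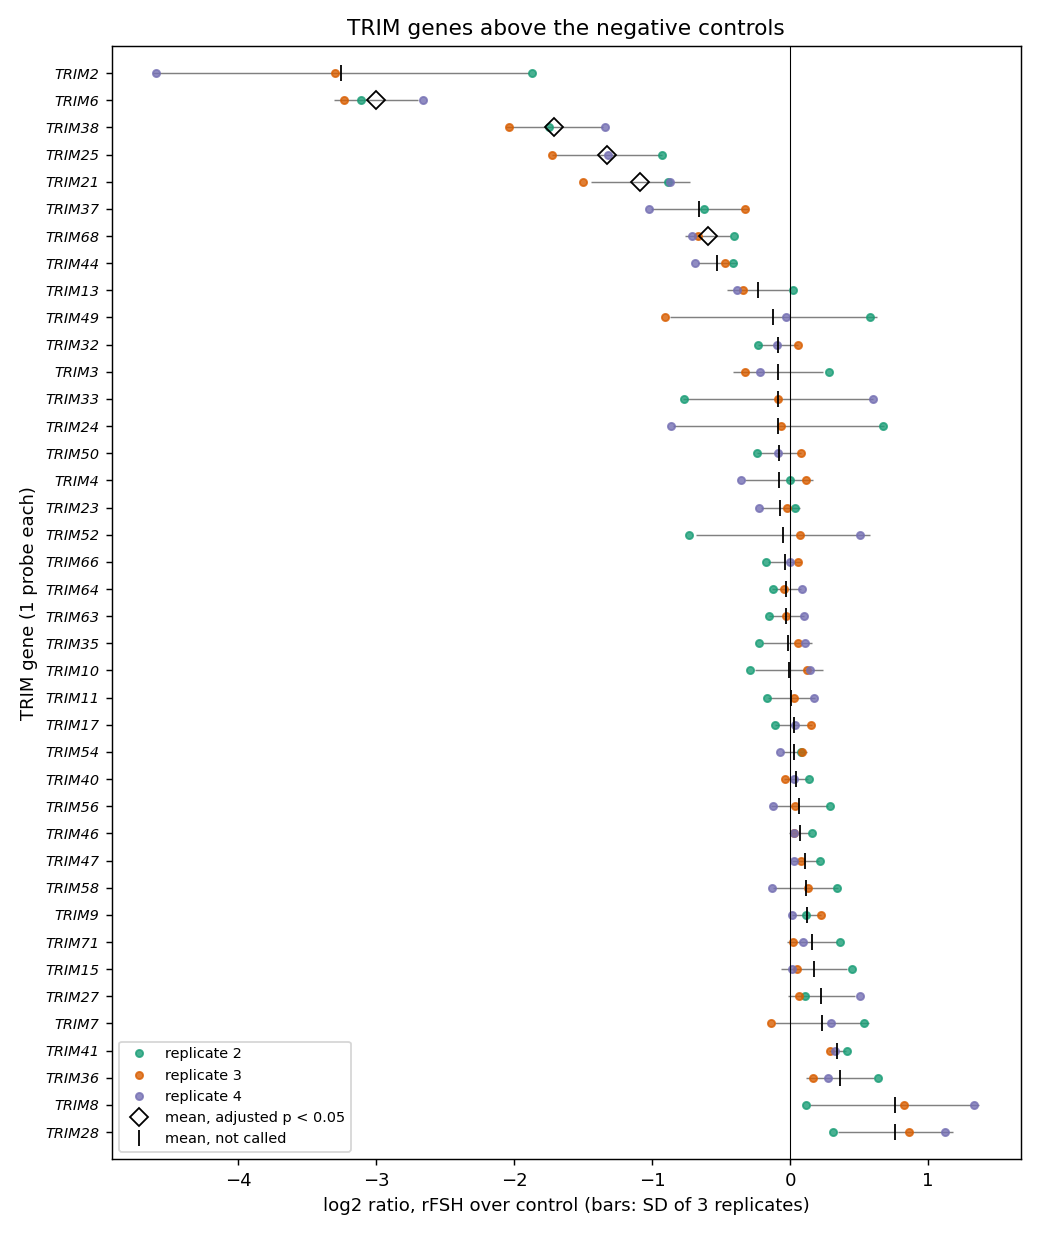
Log2 ratio of rFSH over control for the 40 tested TRIM genes, sorted by mean; coloured points are the 3 replicates, bars the SD, diamonds called means and ticks means not called. The 5 called genes lie from -3.0 to -0.60, TRIM2 lies lowest with its replicates spread from -4.60 to -1.87, and most other genes crowd around 0.

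TRIM6, which in human cells builds free ubiquitin chains that activate the interferon kinase IKBKE, showed the strongest called decrease. On the arrays with rFSH in Cy5 and then in Cy3, its log2 ratio of rFSH over control was -2.99 and -3.22 in replicate 2, -3.03 and -3.44 in replicate 3, and -2.54 and -2.78 in replicate 4. All 6 arrays lay close together and far below 0. Before normalization its spot intensity ran from 839 to 1845 (median 1191) in the rFSH channel and from 7533 to 15669 (median 8659) in the control channel, so the groups did not overlap. The mean ratio was -3.0 ± 0.30 (SD, n = 3), an 8.0-fold lower level with rFSH (limma adjusted p = 0.0138). The call held under all 12 alternatives that kept every replicate. It was lost without replicate 2 (limma adjusted p = 0.136) and without replicate 3 (0.0746), as were the calls of the other 4 members. Without replicate 4 the calls of TRIM6 and TRIM38 held and those of TRIM25, TRIM21 and TRIM68 were lost.

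TRIM38, a regulator of receptor and RNA-sensor signalling in human and mouse cells, fell by 1.71 ± 0.35 on the log2 scale (SD, n = 3; limma adjusted p = 0.0269). Its arrays gave -1.59 and -1.91 in replicate 2, -1.98 and -2.09 in replicate 3, and -1.26 and -1.42 in replicate 4. Every array showed the lower level with rFSH, a 3.27-fold difference on average. Spot intensity reached 1820 at most with rFSH and was at least 3069 in control, without overlap. The call was lost when the channels were compared without pairing (limma adjusted p = 0.0656).

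TRIM25, the ligase that modifies the RNA sensor RIG-I in human cells, fell by 1.32 ± 0.40 (log2, SD, n = 3; limma adjusted p = 0.0370), which is 2.50-fold. With rFSH in Cy5 and then in Cy3 its arrays gave -0.70 and -1.15 in replicate 2, -1.54 and -1.91 in replicate 3, and -0.86 and -1.77 in replicate 4. The direction was the same on all 6, but the dye orientations of replicate 4 stood 0.91 log2 units apart. Spot intensity overlapped slightly between groups, at 1580 to 3682 (median 3033) with rFSH and 3603 to 11258 (median 6831) in control. The call was lost without background correction (limma adjusted p = 0.0563) and without pairing (0.235).

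TRIM21, a cytosolic receptor for antibody that marks coated virus for degradation, fell by 1.09 ± 0.36 (log2, SD, n = 3; limma adjusted p = 0.0431), or 2.12-fold. Its arrays gave -0.94 and -0.83 in replicate 2, -1.44 and -1.56 in replicate 3, and -0.86 and -0.88 in replicate 4. Replicate 3 was the lowest, and the dye orientations of a replicate differed by at most 0.12. It was dimmer than the 3 genes above: spot intensity was 206 to 354 (median 288) with rFSH and 290 to 894 (median 577) in control, and these ranges overlapped. The detection limit set by the negative controls was 135 to 264 over arrays and channels. The call ended under 4 of 12 alternatives, including the authors' own normalized values (limma adjusted p = 0.0639).

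**Figure D2:**
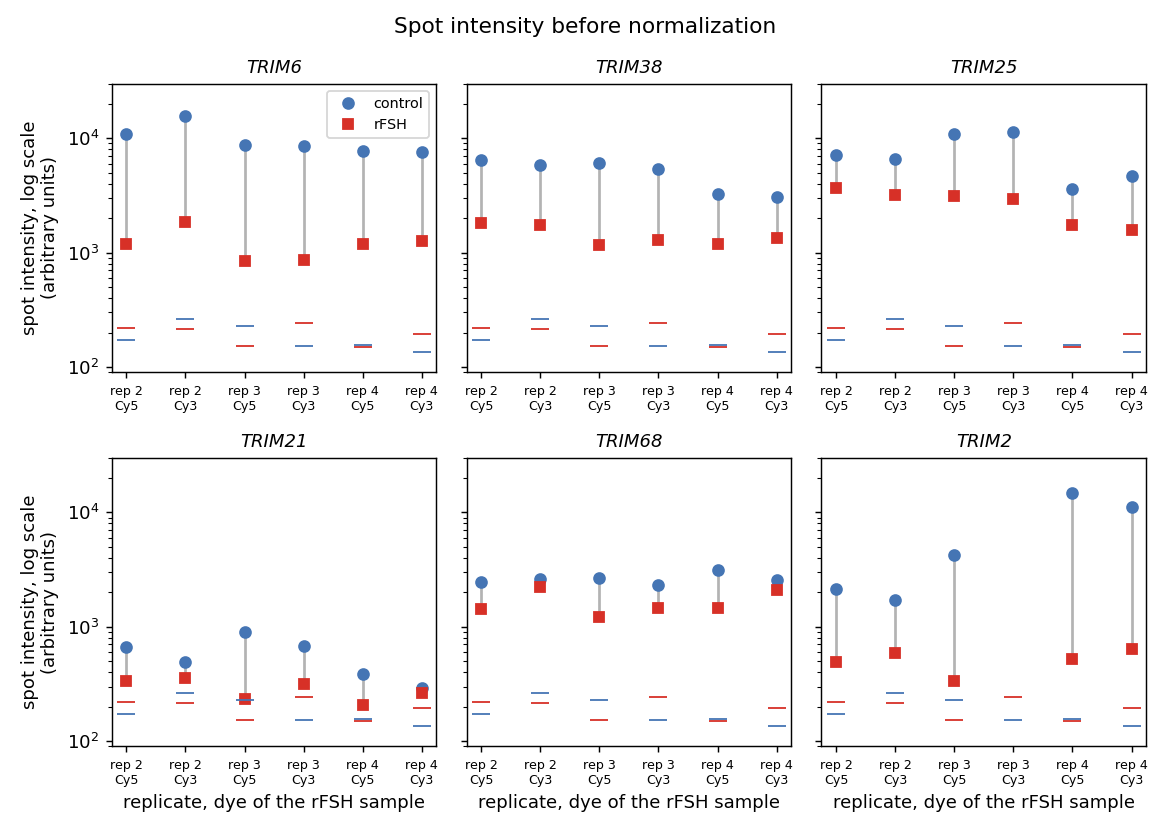
Spot intensity before normalization (log axis) of 6 TRIM genes on each array, by replicate and by the dye of the rFSH sample; blue circles are control, red squares rFSH, and short horizontal marks the limit set by the negative control spots of each channel. Control lies above rFSH on every array with a value in all 6 genes. TRIM21 runs close to the limit, and TRIM2 has 5 arrays because 1 spot was ignored by the image software.

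TRIM68, known in human cells as a partner of the androgen receptor, showed the smallest called difference. It fell by 0.60 ± 0.16 (log2, SD, n = 3; limma adjusted p = 0.0495), with replicate values of -0.41, -0.67 and -0.71 and all 6 arrays between -0.93 and -0.35. Spot intensity was 1216 to 2232 with rFSH and 2335 to 3128 in control, close but without overlap. This call lay at the threshold and was lost under 6 of 12 alternatives (limma adjusted p from 0.00950 to 0.0720). A second, dimmer probe of TRIM68 had a ratio of 0.11 ± 0.05 and was not called (limma adjusted p = 0.469).

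Of the 7 genes listed as interferon-linked, TRIM5, TRIM6, TRIM21, TRIM25, TRIM34, TRIM38 and TRIM56, no probe was named for TRIM5 or TRIM34, so 5 were measured. Of these, 4 fell and TRIM56 was not called. TRIM56, which promotes antiviral signalling in human cells, had a mean log2 ratio of 0.07 ± 0.21 (SD, n = 3). Its values were above 0 on the 3 arrays with rFSH in Cy3 (0.24 to 0.81) and below 0 on the 3 with rFSH in Cy5 (-0.50 to -0.17), so its arrays split by dye orientation. Its intensity stayed near the negative controls, between 145 and 336 over both channels. This list was drawn up with earlier results of these data known, so its count is a description.

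The rest of the SPRY branch showed little difference. Of 23 members on the SPRY list with a probe, 18 were tested, 5 fell, none rose and 13 were not called. The median log2 ratio over the 18 was -0.01. TRIM49, also tested, stood on none of the branch lists and is missing from their counts. Its mean ratio was -0.12 ± 0.75 and it was not called. Of the 13, only TRIM41 had an unadjusted p under 0.05 in limma. TRIM41, a ligase for protein kinase C in human cells, had replicate ratios of 0.41, 0.29 and 0.32, a mean of 0.34 ± 0.06 (limma adjusted p = 0.0853), and all 5 arrays with a value above 0; its replicate 3 value rests on 1 dye orientation. TRIM7, a partner of glycogenin, was next at 0.23 ± 0.34 with arrays from -0.31 to 0.58 and replicate 3 at -0.14, so its replicates did not share a sign. TRIM27 had a mean ratio of 0.23 ± 0.24 and TRIM11 one of 0.01 ± 0.17.

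Among the 4 NHL members, none of which was called in limma although 1 had an unadjusted p under 0.05, TRIM2 had the lowest mean ratio of all tested TRIM genes. TRIM2 is a ligase for neurofilament light chain in mouse neurons. Its brightest probe gave -1.94 and -1.81 in replicate 2, -3.30 on the only usable array of replicate 3, and -4.74 and -4.45 in replicate 4. All 5 arrays were far below 0, yet the replicates differed from each other by more than 1 log2 unit each. Control intensity carried this spread, at 1695 to 14754 (median 4215) against 332 to 643 (median 524) with rFSH. The mean of -3.26 ± 1.36 (SD, n = 3) missed the threshold (limma adjusted p = 0.0501). It was called under 5 of the 11 alternatives that tested it with every replicate (limma adjusted p from 0.00554 to 0.0853), and again without replicate 4 (-2.59, limma adjusted p = 0.0449).

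The other TRIM2 probes gave different sizes. The second probe had a mean log2 ratio of -1.04 ± 0.11 (SD, n = 3), was below 0 on all 6 arrays and was called lower (limma adjusted p = 0.0243). The third, the dimmest, was at -0.13 ± 0.49 and below 0 on 3 of 6 arrays. The probe annotation does not say which transcript each probe reads. TRIM3 had a mean of -0.09 ± 0.33, with arrays from -0.48 to 0.31. TRIM32, a ligase active in muscle, was at -0.09 ± 0.15 (arrays from -0.54 to 0.15), and TRIM71, an RNA-binding regulator of early development, at 0.16 ± 0.18 (arrays from -0.19 to 0.40). None of these 3 had a difference larger than its replicate spread.

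**Figure D3:**
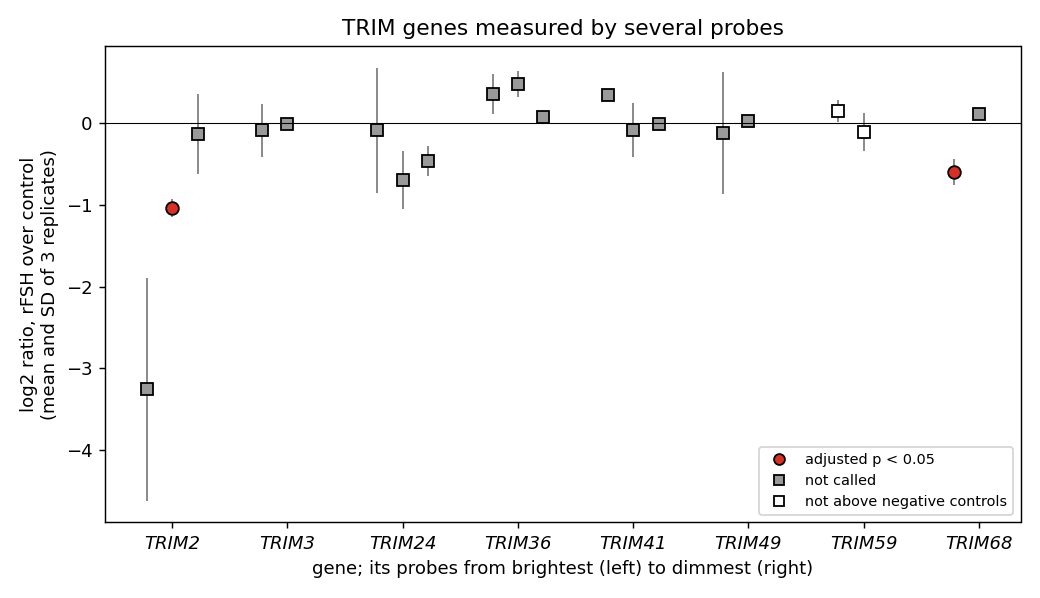
Mean log2 ratio of rFSH over control with the SD of 3 replicates for each probe of the 8 TRIM genes that have several, from the brightest probe at left to the dimmest at right. The 3 probes of TRIM2 run from -3.26 to -0.13, only the second of them being called, and the called probe of TRIM68 lies below its dimmer probe near 0.

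In 8 members several probes could be set side by side, and apart from TRIM2 and TRIM68 no probe among them was called. TRIM24, a nuclear co-regulator with a bromodomain, had probes at -0.09 ± 0.77, -0.70 ± 0.36 and -0.46 ± 0.18. The brightest of these was split by replicate, at 0.67 in replicate 2, -0.07 in replicate 3 and -0.86 in replicate 4 (arrays from -0.96 to 0.88), while the second was below 0 on all 6 arrays (limma adjusted p = 0.0849). The 3 probes of TRIM36, a microtubule-bound ligase, were all above 0, at 0.36, 0.48 and 0.07. In TRIM41 the brightest probe stood alone, the other two being at -0.08 and -0.01.

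The nuclear PHD-bromodomain branch had 4 members, none called in limma and 1 with an unadjusted p under 0.05. That gene was TRIM28, the co-repressor that zinc-finger proteins recruit to silence retroelements. Its array values were 0.56 and 0.06 in replicate 2, 0.77 and 0.96 in replicate 3, and 0.95 and 1.29 in replicate 4. All 6 were above 0, with replicate 2 the lowest. The mean was 0.76 ± 0.41 (SD, n = 3), 1.70-fold (limma adjusted p = 0.0894), the highest of the tested members. It was called higher in 3 of 12 alternatives that kept every replicate, among them one chosen after its values were seen, which left out the array with the lowest share of detected probes in its control channel (0.85, limma adjusted p = 0.0369). TRIM33, which acts on SMAD signalling, changed sign between replicates at -0.77, -0.09 and 0.60 (arrays from -1.05 to 0.86), and TRIM66 had a mean of -0.04 ± 0.12.

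None of 11 partners of TRIM28 in silencing was called in limma either, although 4 had an unadjusted p under 0.05, 2 on each side of 0. The chromodomain protein MPHOSPH8 had a log2 ratio of 0.88 ± 0.37 (limma adjusted p = 0.0594) and PPHLN1, its partner, one of -0.95 ± 0.45 (0.0693). The methyltransferase SETDB1 was at -0.11 ± 0.49. The median over the 11 was -0.03.

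Of the 8 COS-box genes with a probe, 5 were tested and none was called in limma; 1, TRIM36, had an unadjusted p under 0.05. TRIM36 had replicate ratios of 0.64, 0.17 and 0.28 (arrays from -0.02 to 0.83) and a mean of 0.36 ± 0.25 (limma adjusted p = 0.173). TRIM9, a neuronal ligase, was at 0.12 ± 0.11 (arrays from -0.14 to 0.38). The muscle ligase TRIM54 was at 0.03 ± 0.09 (arrays from -0.46 to 0.63) and TRIM63 at -0.03 ± 0.13 (arrays from -0.20 to 0.27). The intensities of both stayed between 146 and 284 over the 2 groups, and the third muscle gene, TRIM55, never exceeded the controls.

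The members with another end domain or none had 8 tested genes and no call in limma, while 3 had an unadjusted p under 0.05. TRIM8, which acts on the cytokine-signalling inhibitor SOCS1, gave -0.06 and 0.29 in replicate 2, 0.82 on both arrays of replicate 3, and 1.24 and 1.43 in replicate 4. Its mean of 0.76 ± 0.61 (SD, n = 3) was close to that of TRIM28, but the replicates spread more widely (limma adjusted p = 0.165). On the other side, TRIM37, a centrosome and peroxisome ligase, had -0.62, -0.32 and -1.03, a mean of -0.66 ± 0.35 (limma adjusted p = 0.0920), and was below 0 on all 6 arrays (-1.22 to -0.11). TRIM44 had a mean of -0.53 ± 0.14 (limma adjusted p = 0.0553) and was below 0 on 5 of 6 arrays, the exception being the replicate 2 array with rFSH in Cy3 (0.06).

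TRIM13, a ligase of the endoplasmic reticulum, was at -0.23 ± 0.22 (arrays from -0.84 to 0.20), and TRIM23, which carries a GTP-binding ARF domain, at -0.07 ± 0.14 (arrays from -0.59 to 0.17). Among tested members TRIM52 had the largest gap between dye orientations, 0.35 against -1.83 in replicate 2, and its mean was -0.05 ± 0.63. That replicate 2 array with rFSH in Cy3 had the lowest share of detected probes, 38.2% in its control channel, against 57.5% to 83.3% in the other channels and arrays. Over all tested members the largest gap between the 2 dye orientations of a replicate had a median of 0.47. This gap lies between single arrays, and both orientations were averaged before the test, so it is not the error of a mean ratio.

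Of the 12 members not tested, 5 never exceeded the negative controls in either channel: TRIM14, TRIM55, TRIM62, TRIM67 and TRIM69. TRIM29, TRIM31, TRIM42, TRIM65 and TRIM72 exceeded them on 1 or 2 arrays in each group. TRIM45 was above them on 2 control arrays and none with rFSH, and TRIM59 on 1 rFSH array and none in control. No fold is given for these members.

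Related proteins with other names gave few tested genes. Of MID1, BSPRY and RNF135, the 3 tested, none was called in limma and 1 had an unadjusted p under 0.05. MID1, a COS-box ligase bound to microtubules, had a log2 ratio of 1.03 ± 0.69 (limma adjusted p = 0.116), above 0 on 5 of 6 arrays. PML, the organiser of nuclear bodies, and MEFV were not above the negative controls often enough to be tested.

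**Figure D4:**
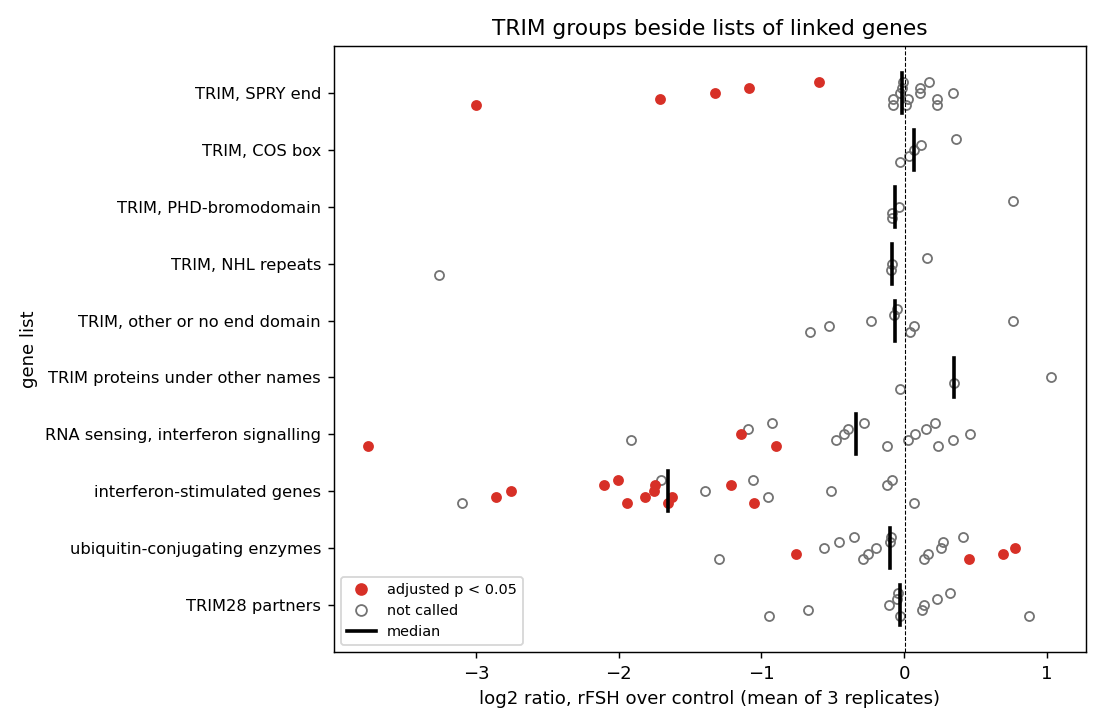
Mean log2 ratio of rFSH over control for each tested gene of the TRIM branches and of lists of linked genes; red points are called, open points not called, thick bars list medians, and the dashed line is the median of all named genes (0.01). Called TRIM genes all stand in the SPRY branch, and the interferon-stimulated genes have a median of -1.66.

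Genes that work with the TRIM proteins in antiviral signalling were set beside them, on lists drawn up with earlier results known. Of 21 tested interferon-stimulated genes, 12 fell and none rose, with a median log2 ratio of -1.66 and 20 of 21 below 0, beside the 4.87% of named genes called lower. They included the ADP-ribosyltransferases PARP9 (-2.86 ± 0.15) and PARP14 (-2.10 ± 0.48), the ISG15 ligase HERC5 (-2.75 ± 0.72) and DTX3L (-2.01 ± 0.23), a ubiquitin ligase that pairs with PARP9. Of 18 tested genes of RNA sensing and interferon signalling, 3 fell and none rose, with a median of -0.34: the sensor IFIH1 (-3.76 ± 0.25), the transcription factor subunit STAT2 (-1.14 ± 0.30) and USP18 (-0.90 ± 0.16), which removes ISG15 from proteins. The kinase TBK1, downstream of the sensors, had -0.92 ± 0.44 (limma adjusted p = 0.0703).

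Ubiquitin-conjugating enzymes, which hand ubiquitin to RING ligases, were mostly not called. At an unadjusted p under 0.05 in limma, 5 lay above 0 and 4 below. The log2 ratios of the 18 tested ran from -1.30 to 0.78. Of 18 tested, 14 were not called, 3 rose and 1 fell, beside 3.88% of named genes called higher and 4.87% lower, and the median was -0.10; UBE2D3 was read by a probe annotated as UBE2D3P. UBE2L3 had a log2 ratio of 0.78 ± 0.02, UBE2S, which extends chains in mitosis, 0.69 ± 0.16 and UBE2R2 0.45 ± 0.01, while UBE2D4, of the family that most RING ligases use, was at -0.76 ± 0.01. UBE2N, which builds the chains used in RNA sensing, had 0.14 ± 0.30 and was not called (limma adjusted p = 0.619).

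None of the 7 tested genes that stand within 3 places of a called member in gene order was called lower. Of all tested named genes 4.87% were called lower and 3.88% higher, so a count over so few genes says little. No neighbour of TRIM68 was tested. Of the 3 annotated protein-coding genes on each side of TRIM25 in the current bovine RefSeq order, 4 had a named probe: NOG was called higher (1.14 ± 0.40, limma adjusted p = 0.0454), and DGKE (0.13), COIL (-0.34) and SCPEP1 (-0.19) were not called. Most genes beside TRIM6, TRIM21 and TRIM68 in that order are olfactory receptors with no named probe. These neighbours were chosen after the ratios had been seen.

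Markers of other cells were examined because interferon-linked TRIM genes are also strong in leukocytes. All 10 cumulus and granulosa markers were detected on at least 3 arrays in each group. In limma 2 of the 10 were called higher and 1 lower, beside 3.88% and 4.87% of all tested named genes. The log2 ratios of these markers ran from -1.17 to 3.77, with a median of 0.09. Their summed intensity before normalization, in which bright genes weigh most, was 100900 to 116611 with rFSH and 68745 to 97470 in control, without overlap. Its part in the TRIM ratios was not tested. Of 7 leukocyte markers with a probe, 4 were tested and none was called in limma, with 1, CD68, at an unadjusted p under 0.05. CD68 lay above 0, and the log2 ratios of the 4 ran from -0.03 to 1.30, 3 of them above 0. The pan-leukocyte gene PTPRC had a log2 ratio of 0.09 ± 0.01, and NKG7 was not detected on any array. The summed intensity of the leukocyte markers was 1338 to 5258 with rFSH and 1321 to 3371 in control, ranges that overlapped; its part in the TRIM ratios was not tested. Of 7 theca and stroma markers, 2 fell, beside 4.87% of all tested named genes. These were the contractile genes ACTA2 (-1.29 ± 0.49) and MYH11 (-0.68 ± 0.17), and 5 were not called, 3 of them above 0. The highest was PDGFRA, a stromal growth factor receptor, at 0.62 ± 0.30 (limma adjusted p = 0.0820), and the median over the 7 was -0.03. The summed intensity was 12481 to 22057 with rFSH and 19184 to 30954 in control; its part in the TRIM ratios was not tested. None of 11 tested oocyte markers was called in limma, and none had an unadjusted p under 0.05. Their replicates disagreed, with a median log2 ratio of 0.77 in replicate 2, -1.22 in replicate 3 and 0.13 in replicate 4. Equal oocyte RNA in the 2 groups of a replicate is therefore not shown. The summed intensity of the 12 oocyte markers with a probe was 2166 to 6270 with rFSH and 1644 to 7631 in control; its part in the TRIM ratios was not tested. Fewer cells of a type and less RNA per cell cannot be told apart in these bulk samples.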

How the data were processed

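Per the file headers, the authors deposited scanner intensity of each spot and its surroundings in the Cy3 and Cy5 channels, before any normalization, with a mark for ignored spots. They also deposited normalized log2 ratios, made by steps not given in the sources used here. Set against the scanner values these were log2 Cy5 over Cy3 (r from 0.989 to 0.998 per array), with column medians from -0.0202 to 0.00122, and served as an alternative. Per the labels' protocols, RNA was linearly amplified and chemically labelled.

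Mean intensities of 45220 spots were corrected with normexp (offset 50) and normalized within arrays (loess, span 0.3; limma 3.58.1, R 4.3.3), with control spots at weight 0 and ignored spots (18 to 64 per array) left out. A probe was tested where it exceeded the mean plus 2 SD of 153 negative controls in 3 or more arrays of a group. Ratios were turned by the dye labels, both arrays of a replicate averaged, and 3 values tested against 0 with lmFit and eBayes, adjusted over 34821 of 43794 bovine probes. The 3 replicates limit the precision. The fit was tested on simulated data with 50 changes of each size. It recovered 0 at a log2 size of 0.5, 9 at 1, 29 at 2 and 42 at 3, with 1 false call. These few changes stood among 34821 simulated probes, while 2208 probes were called in the data. The adjusted threshold was therefore stricter in the simulation, and its recovery does not give the power of the real fit. With 3 replicates a gene that was not called can still differ.

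Of the 52 symbols 51 are current RefSeq symbols (assembly ARS-UCD2.0), while TRIM49 is now a synonym of TRIM77. One symbol was given for 21790 bovine probes, several for none, and 22004 are unnamed here. No coordinates are given, because no build is named, and protein and promoter sequences were not used here. Array values or their range were given for called members, the 5 highest and 5 lowest tested members and the members of a fixed list of roles; for other lists, up to 4 called genes by size. TRIM11, TRIM27, TRIM44, TRIM49, TRIM52 and TRIM66, the uncalled genes of other lists and the second probes were named after their values were seen. Members and lists were chosen with earlier results of these data known.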

Additional observations from a re-analysis of the deposited data

Results flagged for a closer look

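The 6 turned array values of each tested member with a value on every array were put to Dixon's test for a lone extreme array, which chance alone flags in about 1 of 20 sets of independent values. The 6 arrays are not independent, being 3 replicates with 2 arrays each, so that rate is only a guide. Of 38 such sets 1 stood out. TRIM23 had a log2 ratio of -0.59 in replicate 4 where rFSH was in Cy5, against -0.09 to 0.17 on the other arrays.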

How the results depend on the processing

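No called value changed sign under any alternative, and 20 sign changes in 9 named members concerned values that were called neither way. The count of lower members was 5. Omitting background correction gave 2, subtracting the background plainly gave 3, and it was 1 without pairing (no replicate block) and 8 at adjusted p under 0.1. The count of higher members was 0. It was 2 in the fit to all 6 arrays that had the replicate block as random and dye as a term (where lower members were 7), 1 with arrays with rFSH in Cy5 only, 1 without the replicate 2 array of lowest control-channel detection, an alternative chosen after seeing the data, and 2 at adjusted p under 0.1. Leaving out each replicate gave 0 to 3 lower members, 0 to 510 higher probes and 0 to 675 lower probes; without replicate 2 and without replicate 3 no probe was called in limma, though 6874 and 7399 had an unadjusted p under 0.05. Over all probes 1035 were higher and 1173 lower, 46.9% of the calls being higher against 29.6% with median centring. Higher and lower probes were 570 and 482 without background correction, 2674 and 3381 with the replicate block, 472 and 549 without it and unpaired, and 2330 and 2770 at adjusted p under 0.1, the last by construction. Arrays with rFSH in Cy5 only gave 1565 and 1833, and those with rFSH in Cy3 only 1581 higher. Lower probes alone were 714 with plain subtraction, 1863 with offset 0 and 1848 with median centring. With the second brightest probe where a gene has several, 5 members were lower, TRIM2 of the NHL branch being called in place of TRIM68. Each fit that left out a replicate rested on fewer values, and the loss differed with the replicate left out. The cause of these changes was not tested. TRIM6 and TRIM38 were the called members kept without background correction and with plain subtraction, where TRIM25 was kept too. Of the 40 tested members 17 were detected in all 12 channels.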
